A study of Mus musculus with 8 samples.

Results

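Oxidative phosphorylation is the set of reactions by which mitochondria use electrons from food to make ATP, and its genes were followed here across 4 subsets of mouse medullary thymic epithelial cells (mTECs). Members were taken by symbol from the protein-coding genes of the annotation: all genes of the mitochondrial chromosome with the prefix mt-, and the nuclear Nduf, Sdh, Uqcr, Cox and Atp5 families of the respiratory complexes. Of 107 such genes, 104 of the 25466 genes in the deposited table were members, 13 encoded in the mitochondrion and 91 in the nucleus. Cox7b2, Cox8c and a second locus that shares the symbol Atp5o were not among the genes of the table. The nuclear members comprised 38 genes of complex I, 8 of its assembly factors, 4 of complex II, 8 of complex III, 16 of complex IV and 17 of complex V.

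mTECs display self antigens to developing thymocytes, including tissue-restricted antigens such as the tetraspanin Tspan8. The cells came from thymi of wild-type BL6N6 mice aged between 4 and 6 weeks and were sorted as CD45neg Epcampos CDR1neg cells. The gates then separated cells with Tspan8 on the surface (Tspan8pos) from cells without it (Tspan8neg), and low from high MHCII (MHCIIlo, MHCIIhi), which is used as a sign of maturation although late stages return to MHCIIlo. The 4 subsets were Tspan8negMHCIIlo, Tspan8negMHCIIhi, Tspan8posMHCIIhi and Tspan8posMHCIIlo, each with 2 libraries labelled as biological replicates, all untreated and of the same genotype. The comparisons ask how the genes differ with Tspan8 at a given MHCII level, with MHCII at a given Tspan8 level, and whether 1 difference depends on the other.

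The respiratory chain has complexes that pass electrons on (I to IV) and an ATP synthase, complex V, that uses the resulting proton gradient. Complex I takes electrons from NADH and complex II from succinate, complex III hands them to cytochrome c, and complex IV, cytochrome c oxidase, gives them to oxygen. Complex II is built wholly from nuclear genes. The other complexes need both genomes: the mitochondrial genome supplies core membrane subunits, transcribed as long polycistronic RNAs from both strands, while nuclear genes supply the remaining subunits through cytosolic translation and import.

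Library totals ranged from 1941518 to 7783841 counts, and levels are given as CPM, counts scaled to a common library size after TMM normalisation. The sort genes followed their labels for Tspan8, at 3.65 to 14.6 CPM in Tspan8neg and 347 to 405 CPM in Tspan8pos libraries. H2-Ab1, an MHCII chain, was higher in MHCIIhi at both Tspan8 levels, but stood at 2074 and 1700 CPM in Tspan8negMHCIIlo against 518 and 489 CPM in Tspan8posMHCIIlo. The 6 mTEC markers summed to between 2660 and 4260 CPM in every library, but single mTEC markers moved both ways. With MHCII in Tspan8neg cells 4 had a positive and 2 a negative fitted log2 change, from -2.73 to 3.8. With Tspan8 at MHCIIhi these were 3 and 3, from -2.44 to 2.53. Sums of markers used for several other cell types were highest in Tspan8negMHCIIlo. The 6 thymocyte markers summed to 336 and 933 CPM there against 62.8 to 196 CPM elsewhere. The 4 B cell markers summed to 473 and 822 CPM against 25.3 to 122 CPM. Muscle markers (126 and 96.2 CPM against 20.9 to 46.7 CPM) and endothelial markers (106 and 85.6 CPM against 13 to 61 CPM) stood in the same order. No listed marker of these 4 types was at 0 in all libraries. Single markers differed: 1 of 4 B cell and 2 of 6 muscle markers had a positive fitted log2 change from Tspan8negMHCIIlo to Tspan8negMHCIIhi. From Tspan8negMHCIIlo to Tspan8posMHCIIlo these were 0 of 4 and 1 of 6. Red cell markers (68 and 99.7 CPM against 20.5 to 50 CPM) did too, while the sums for fibroblasts (111 and 197 CPM against 47.5 to 132 CPM), cTECs (102 and 210 CPM against 44.5 to 121 CPM) and dendritic cells and macrophages (18.5 and 46.4 CPM against 13.5 to 64.9 CPM) overlapped between subsets. Male germ cell markers summed to at most 7.43 CPM. The paper describes Tspan8negMHCIIlo as mixing immature with mimetic mTECs, among which it counts Tuft mTECs. mTECs also express tissue-restricted genes, and which cells the markers above came from was not tested. In sorted bulk samples, fewer cells of a type and less RNA per cell cannot be told apart.

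Of the 13 mitochondrial genes, 7 have a near-identical copy in a nuclear insertion on the minus strand of chromosome 1 (GRCm38, 24611535 to 24616197), annotated as unprocessed pseudogenes, and 6 of these copies have rows of their own in the table. The copies Gm10222, Gm28437, Gm10925 and Gm28661 matched mt-Nd4l, mt-Co3, mt-Atp6 and mt-Co2 over their whole length with no mismatch. Gm28438 differed from mt-Nd3 by T3C, counted from the first base of the mitochondrial transcript with its base first. The start of mt-Atp6 (mitochondrial genome, 7927 to 7986, plus strand) and of its copy (chromosome 1, 24614592 to 24614651, minus strand), read from the GENCODE transcripts, is shown because no read of 54 bases from it, the length in these libraries, could tell them apart.
mt-Atp6: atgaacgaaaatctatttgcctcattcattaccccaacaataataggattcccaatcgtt
Gm10925: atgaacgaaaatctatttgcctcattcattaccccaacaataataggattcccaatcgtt
The second pair is shown because it can be told apart at its beginning, where mt-Co1 (6381 to 6441, plus strand) and Gm29216 (24616137 to 24616197, minus strand) carry T1056A, C1057T, A1059G, A1060G, C1062A and A1066T, the capitals marking the bases that differ.
mt-Co1: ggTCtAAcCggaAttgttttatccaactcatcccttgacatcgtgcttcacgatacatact
Gm29216: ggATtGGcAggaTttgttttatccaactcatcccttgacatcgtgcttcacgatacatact
Over the 492 aligned bases of the second pair these were the 6 mismatches, an identity of 98.78%.

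Counts of the identical pairs were split unevenly between the rows. For mt-Atp6, the nuclear row took 58.1% and 2.66% of the summed counts in Tspan8negMHCIIlo, 0% in both Tspan8negMHCIIhi libraries, 93.6% and 0% in Tspan8posMHCIIhi, and 60.2% and 31.2% in Tspan8posMHCIIlo. Replicates of a subset thus lay far apart, and the subsets overlapped. The nuclear row took 75.2% to 100% of the counts for mt-Co3, 77.9% to 99.1% for mt-Co2, 37.1% to 100% for mt-Nd3 and 0% to 100% for mt-Nd4l, but 7.28% to 14.9% for mt-Co1. mt-Nd3, a complex I core subunit, was listed at 0 in 5 of 8 libraries. Once the rows were summed, replicates lay closer: mt-Atp6 with its copy stood at 1708 and 1330 CPM in Tspan8negMHCIIlo, 424 and 614 CPM in Tspan8negMHCIIhi, 686 and 599 CPM in Tspan8posMHCIIhi, and 630 and 815 CPM in Tspan8posMHCIIlo. Values for both the deposited rows and the summed rows are therefore given. The 6 mitochondrial genes without a near-identical copy (mt-Nd1, mt-Nd2, mt-Nd5, mt-Nd6, mt-Cytb and mt-Atp8) are counted separately, as genes without a copy. They are not all free of shared sequence. Of their 31-base words, mt-Nd5 shares 16.83%, mt-Nd2 13.49% and mt-Nd1 0% with other genes. mt-Co1 shares 63.89%, with Gm13340 as its top partner. Gm13340 is not among the copies summed, and its part in the counts was not tested.

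**Figure D1:**
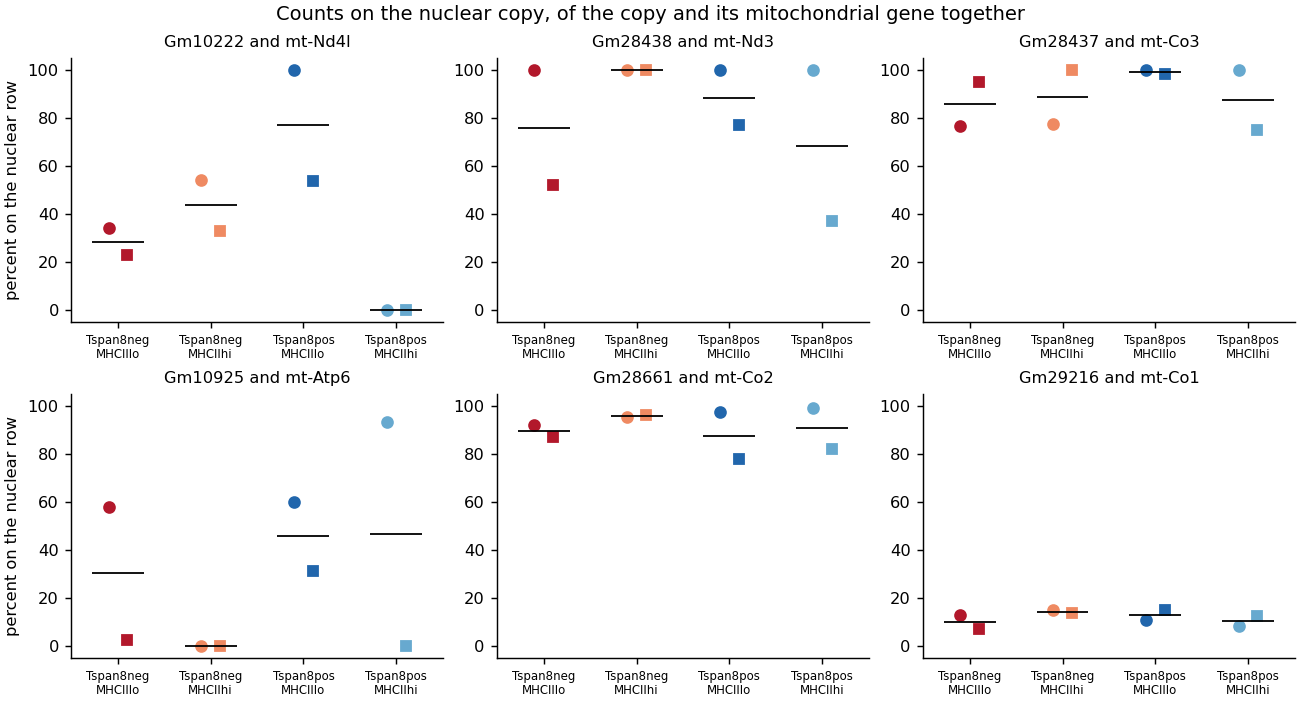
Percent of counts on the nuclear row, out of the nuclear copy and its mitochondrial gene together, for each of the 6 pairs in the table. Circles are replicate 1, squares replicate 2 and lines the mean of a subset. For Gm10925 the share ran from 0% to 93.6% and replicates disagreed, while for Gm29216 it stayed between 7.28% and 14.9%.

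Mitochondrially encoded genes took a larger share of the counts in Tspan8negMHCIIlo than in the other subsets. Their share was 1.61% and 1.54% in Tspan8negMHCIIlo, 0.556% and 0.716% in Tspan8negMHCIIhi, 0.624% and 0.663% in Tspan8posMHCIIhi, and 0.599% and 0.741% in Tspan8posMHCIIlo. Both Tspan8negMHCIIlo libraries lay above the range of the other 6, which overlapped among themselves. With the nuclear copies added, the share was 2.26% and 2.01% against 0.735% to 1.01% elsewhere. mt-Co1 alone made up 40.3% to 48.6% of the deposited mitochondrial counts. The 91 nuclear genes held 0.562% and 0.656% in Tspan8negMHCIIlo and 0.567% to 0.739% elsewhere, so this share overlapped between subsets. The ratio of mitochondrial to nuclear-encoded counts was 2.87 and 2.35 in Tspan8negMHCIIlo and 0.803 to 1.31 in the other libraries. The mitochondrial ribosomal RNA genes, which are not members and which poly(A) selection captures in part, moved alike, at 0.0698% and 0.0588% against 0.0185% to 0.0364%.

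The libraries with the high mitochondrial share were also those with the highest thymocyte, B cell, muscle and endothelial marker sums. Which cells these markers came from, and the part of those cells in the share, was not tested. From replicate 1 to replicate 2 of Tspan8negMHCIIlo, these marker sums moved both ways. Thymocyte sums went from 336 to 933 CPM (2.78 times) and B cell sums from 473 to 822 CPM. Muscle sums went from 126 to 96.2 CPM and endothelial sums from 106 to 85.6 CPM. The mitochondrial share went from 1.61% to 1.54%, or from 2.26% to 2.01% with nuclear copies.

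**Figure D2:**
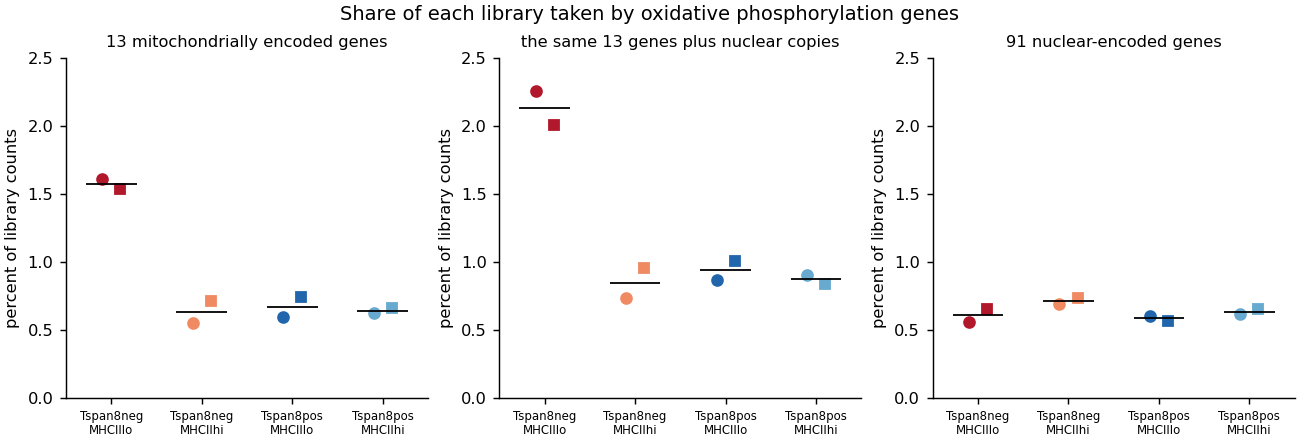
Percent of each library's counts from the 13 mitochondrially encoded genes, from these genes with their nuclear copies, and from the 91 nuclear-encoded genes, by subset. Circles are replicate 1, squares replicate 2 and lines the mean. The mitochondrial share was 1.54% to 1.61% in Tspan8negMHCIIlo and at most 0.741% elsewhere, while the nuclear share ranged from 0.562% to 0.739% over all libraries.

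With MHCII in Tspan8neg cells, 9 of 13 mitochondrial genes fell and none rose (edgeR, adjusted p under 0.05), where 43.3% of all 17006 genes tested were called and 21.4% were lower. All 6 genes without a copy were among those 9. With copies summed, all 13 genes were lower, with a median log2 fold change of -1.32, against -1.44 for the deposited rows and -0.04 for all genes. mt-Co1, the catalytic core of complex IV, stood at 7337 and 6931 CPM in Tspan8negMHCIIlo, 2342 and 2934 CPM in Tspan8negMHCIIhi, 3117 and 2805 CPM in Tspan8posMHCIIhi, and 2927 and 3299 CPM in Tspan8posMHCIIlo. Only Tspan8negMHCIIlo stood apart for this gene. It fell by 1.44 on the log2 scale (SE 0.13, adjusted p = 1.39e-05). mt-Cytb, the cytochrome b of complex III, went from 2935 and 2269 CPM to 940 and 1230 CPM and fell by 1.26 (SE 0.17, adjusted p = 0.00017).

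Among the complex I core genes, mt-Nd1 (mitochondrial genome, 2751 to 3707) went from 991 and 878 CPM to 352 and 408 CPM, a fall by 1.30 on the log2 scale (SE 0.15, adjusted p = 5.6e-05). mt-Nd4 fell by 1.26 and mt-Nd2 by 1.24. mt-Nd6, which is read from the opposite strand to the other 12 genes, had far fewer counts, at 9.27 and 9.20 CPM against 1.87 and 2.95 CPM, and fell by 1.89 (SE 0.46, adjusted p = 0.00647). It held 9 and 23 counts in Tspan8negMHCIIhi. Its gene overlaps that of mt-Nd5, and how reads in that overlap were assigned was not tested. mt-Atp8, a small subunit of complex V whose gene overlaps that of mt-Atp6, had the largest called fall of the 6 genes without a copy. It went from 89.3 and 74.3 CPM to 7.49 and 19.9 CPM (log2 -2.52, SE 0.37, adjusted p = 0.000321). Its 204 bases held 36 and 155 counts in Tspan8negMHCIIhi, and how reads in the overlap were assigned was not tested. Of the 6 genes without a copy, mt-Nd5 changed least, with a fall by 0.57 (SE 0.17, adjusted p = 0.0211) from 627 and 532 CPM to 317 and 462 CPM, and its call was lost without replicate 1 of Tspan8negMHCIIhi or replicate 1 of Tspan8negMHCIIlo.

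With Tspan8 at MHCIIlo, 8 of 13 mitochondrial genes were lower in Tspan8pos and none was higher, where 41.1% of all genes were called and 19.6% were lower. With copies summed there were 11, all but mt-Nd3 and mt-Nd5, and the median log2 fold change was -0.94, against -1.04 for the deposited rows and -0.03 for all genes. mt-Co1 was lower by a log2 value of -1.20 (SE 0.13, adjusted p = 3.81e-05), mt-Nd1 by -0.86 (SE 0.15, adjusted p = 0.000818) and mt-Atp8 by -1.72 (SE 0.38, adjusted p = 0.00383). For these 3 genes both Tspan8posMHCIIlo libraries lay below both Tspan8negMHCIIlo libraries, and 67.8% of all genes likewise had no overlap between these subsets. mt-Nd5 stood at 438 and 493 CPM in Tspan8posMHCIIlo, with a log2 fold change of -0.31 and an adjusted p of 0.176. Both comparisons that involve Tspan8negMHCIIlo share its 2 libraries, so they are not independent of each other. The counts without replicate 2 of Tspan8negMHCIIlo were 8 for Tspan8 and 10 for MHCII.

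With Tspan8 at MHCIIhi, mt-Nd1 and mt-Atp8 were higher in Tspan8pos and no mitochondrial gene was lower, where 38.2% of all genes were called and 20.8% were higher. mt-Nd1 rose from 352 and 408 CPM to 550 and 462 CPM (log2 0.41, SE 0.15, adjusted p = 0.0451), and mt-Atp8 from 7.49 and 19.9 CPM to 42.2 and 25.0 CPM (log2 1.24, SE 0.38, adjusted p = 0.0242). Neither gene overlapped between these subsets, as was true of 73.8% of all genes. DESeq2 called 1 mitochondrial gene here, not mt-Nd1, and thinning the libraries to 1941518 counts left 0. With copies summed, mt-Co2 was called too, with a log2 fold change of 0.41 and an adjusted p of 0.0349.

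With MHCII in Tspan8pos cells, no mitochondrial gene was called by edgeR or DESeq2, where 16.8% of all genes were called, and 1 of 13 had an unadjusted p under 0.05. The median log2 fold change was -0.02, or -0.05 with copies summed. mt-Co1 had a log2 fold change of -0.07 (SE 0.13).

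**Figure D3:**
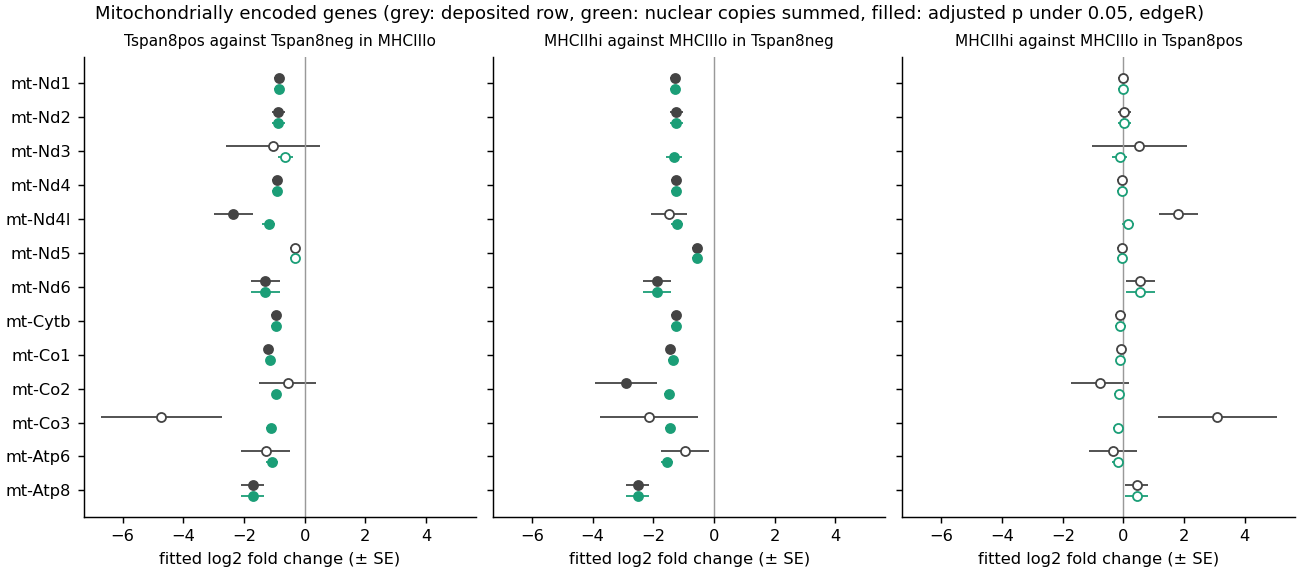
Fitted log2 fold change with its SE for the 13 mitochondrially encoded genes in 3 comparisons, for the deposited row (dark grey) and after summing nuclear copies (green). Filled points passed an adjusted p under 0.05 in edgeR, and the deposited mt-Nd3 is left out of the middle panel because a whole subset was listed at 0. After summing, all 13 genes lay between -2.52 and -0.57 in the middle panel.

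The interaction tests whether the MHCII difference in Tspan8neg differs from that in Tspan8pos cells. It was called for 8 of 13 mitochondrial genes, all with the larger fall in Tspan8neg, where 12.3% of all genes were called with 6.12% in this direction and 6.21% in the other. With copies summed it was called for 12, all but mt-Nd5 (log2 -0.53, adjusted p = 0.192). mt-Co1 had an interaction of -1.36 (SE 0.19, adjusted p = 0.00135), mt-Nd1 of -1.27 (SE 0.21, adjusted p = 0.00331) and mt-Atp8 of -2.96 (SE 0.53, adjusted p = 0.0057). Of the 87 nuclear members tested, edgeR called 0 in the interaction and 6 had an unadjusted p under 0.05, while DESeq2 called 1.

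Levels between genes were compared per kilobase of the principal transcript. In the deposited rows mt-Co1, at a mean over libraries of 2564 CPM per kb, and mt-Cytb, at 1378, were the highest of all members. With copies summed mt-Co1 stood at 2899 CPM per kb and mt-Co2, the subunit of complex IV that receives electrons from cytochrome c, at 2244, above mt-Cytb. The median over the 13 mitochondrial genes was 259 CPM per kb for the deposited rows and 610 with copies summed, and over the 91 nuclear genes 54.4. The highest nuclear member was Atp5b, the catalytic beta subunit of ATP synthase, at 455 CPM per kb, followed by Cox8a at 279. In the other complexes Uqcrh led complex III at 223, Ndufa4 complex I at 155, and Sdha complex II at 61.2.

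The nuclear-encoded genes called went in both directions with Tspan8, and all went up with MHCII in Tspan8neg cells. Among the 91 genes, 87 passed the filter on low counts. With Tspan8 at MHCIIlo 10 were higher and 4 lower in Tspan8pos (16.1% of those tested against 41.1% of all genes, of which 21.5% were higher), and at MHCIIhi 7 were higher and 4 lower (12.6% against 38.2%). With MHCII in Tspan8neg cells 17 were higher and 0 lower (19.5% against 43.3%), where 21.9% of all genes were higher and 21.4% lower. In Tspan8pos cells 5 were higher and 1 lower, where 9.84% were higher and 6.99% lower. The median log2 fold changes of the 87 genes were 0.11, 0.06, 0.15 and 0.11 in this order, where those of all genes lay between -0.04 and 0.01. In each comparison the share of nuclear members called was below the share of all genes called.

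A stricter rule, an adjusted p under 0.01 with a log2 change of 1 or more either way, kept few members. With Tspan8 at MHCIIlo it left Ndufa4 (higher), mt-Co1 and mt-Atp8 (lower), where 21.4% of all genes passed, 12.1% higher and 9.34% lower. At MHCIIhi it left Ndufa4 and Ndufa6 (higher) and Cox4i2 (lower), where 18.5% passed, 11% higher and 7.45% lower. With MHCII in Tspan8neg cells it left Ndufc2 (higher) and 7 mitochondrial genes (lower), where 22.7% passed, 13.1% higher and 9.67% lower. In Tspan8pos cells it left no member, where 7.21% passed, 4.59% higher and 2.62% lower. In the interaction it left mt-Nd1, mt-Nd4, mt-Co1 and mt-Atp8, all negative, where 4.6% passed, 2.36% positive and 2.24% negative.

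**Figure D4:**
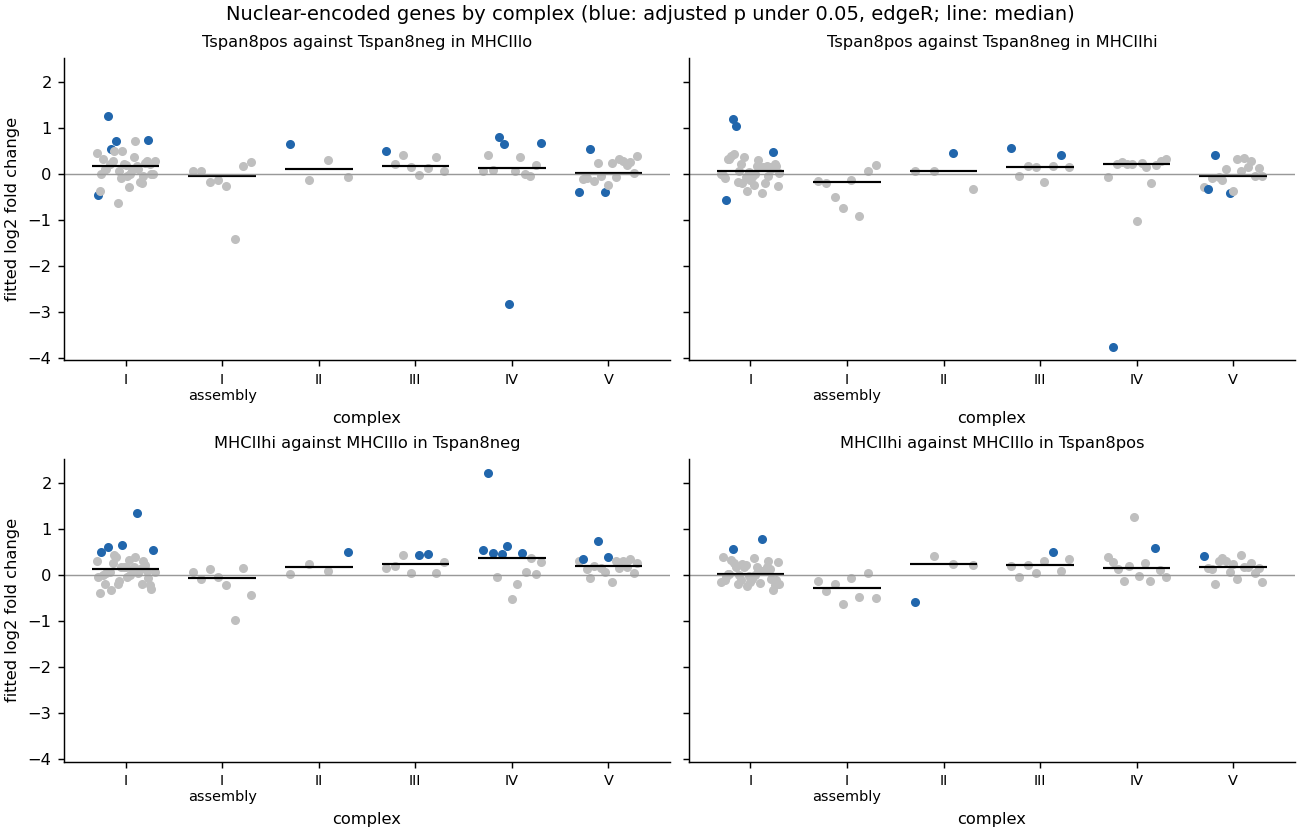
Fitted log2 fold change of the nuclear-encoded genes tested, by complex, in the 4 comparisons between subsets. Blue points passed an adjusted p under 0.05 in edgeR, lines are medians over the genes drawn, and Cox4i2 is left out where a whole subset was listed at 0. With MHCII in Tspan8neg cells all 17 called genes lay above 0.

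In complex I, 4 of 37 tested genes rose and 1 fell with Tspan8 at MHCIIlo, and 3 rose and 1 fell at MHCIIhi. These are 13.5% and 10.8% of the genes tested, against 41.1% and 38.2% of all genes. Ndufa4 (chromosome 6, 11900292 to 11907497, minus strand), first described with complex I and later placed in complex IV, stood at 36.5 and 41.7 CPM in Tspan8negMHCIIlo, 52.4 and 67 CPM in Tspan8negMHCIIhi, 135 and 139 CPM in Tspan8posMHCIIhi, and 90.1 and 96.7 CPM in Tspan8posMHCIIlo. The 4 subsets did not overlap, and Ndufa4 was the nuclear member with at least 10 CPM that rose most with Tspan8, by 1.26 (SE 0.16, adjusted p = 0.000121) and 1.19 (SE 0.15, adjusted p = 0.000121) on the log2 scale. It was also higher with MHCII, by 0.61 in Tspan8neg (adjusted p = 0.0103) and 0.55 in Tspan8pos cells (adjusted p = 0.0315). The first of these calls was lost without replicate 2 of Tspan8negMHCIIhi, and the second without any 1 of the 4 libraries compared and with the length and GC correction. The interaction was 0.07 (SE 0.22).

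Ndufa6, an accessory subunit, stood at 39.3 and 35.1 CPM, 32.4 and 27.0 CPM, 67.1 and 53.4 CPM, and 53.3 and 53.8 CPM in the subsets in the same order. Every Tspan8pos library was above every Tspan8neg library, with log2 differences of 1.03 at MHCIIhi (SE 0.17, adjusted p = 0.000723) and 0.53 at MHCIIlo (SE 0.18, adjusted p = 0.0335), the latter call being lost in 5 of 8 fits that left out a library. Ndufs7, which carries an iron-sulfur cluster near the quinone site, rose with Tspan8 by 0.73 at MHCIIlo (adjusted p = 0.00292) and by 0.47 at MHCIIhi (adjusted p = 0.0266), the latter call being lost with DESeq2. Ndufa9, a further accessory subunit, was called at MHCIIlo, at 0.71 (adjusted p = 0.00262). The accessory subunits Ndufa10 (-0.45 at MHCIIlo) and Ndufa12 (-0.56 at MHCIIhi) were lower in Tspan8pos, and both calls were lost with DESeq2.

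With MHCII, Ndufc2, an accessory subunit of the membrane arm, rose most among nuclear members with at least 10 CPM. It stood at 24.7 and 32.1 CPM in Tspan8negMHCIIlo, 65.3 and 78.8 CPM in Tspan8negMHCIIhi, 56.6 and 52.0 CPM in Tspan8posMHCIIhi, and 35.2 and 29.9 CPM in Tspan8posMHCIIlo. Both MHCIIhi subsets were above both MHCIIlo subsets. The log2 difference was 1.34 in Tspan8neg (SE 0.18, adjusted p = 0.000164) and 0.77 in Tspan8pos cells (SE 0.18, adjusted p = 0.0152), the latter call being lost in 3 of 8 fits that left out a library. Ndufb2, Ndufa12 and Ndufv2 also rose in Tspan8neg cells, by 0.64, 0.50 and 0.53. The Ndufb2 call was lost in 7 of 8 fits that left out a library and the Ndufa12 call in 3. DESeq2 made neither of these calls. None of the 8 assembly factors was called in the 4 comparisons or the interaction, and none had an unadjusted p under 0.05 in edgeR.

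In complex II, Sdha, the flavoprotein that oxidises succinate, stood apart in Tspan8posMHCIIlo. Its level was 142 and 165 CPM in Tspan8negMHCIIlo, 155 and 154 CPM in Tspan8negMHCIIhi, 161 and 161 CPM in Tspan8posMHCIIhi, and 243 and 240 CPM in Tspan8posMHCIIlo. The first 3 subsets lay close together. Sdha was higher by 0.65 with Tspan8 at MHCIIlo (SE 0.13, adjusted p = 0.00211) and lower by a log2 value of -0.58 with MHCII in Tspan8pos cells (SE 0.13, adjusted p = 0.00994), while its interaction had an adjusted p of 0.0571. The MHCII call was lost without any 1 of the 4 libraries compared. Its iron-sulfur partner Sdhb was called in no comparison. Of the membrane anchors, Sdhc was higher in Tspan8pos at MHCIIhi (0.44) and Sdhd was higher with MHCII in Tspan8neg cells (0.49).

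In complex III, the Rieske iron-sulfur protein Uqcrfs1 was higher with MHCII in both backgrounds, by 0.46 (adjusted p = 0.0253) and 0.49 (adjusted p = 0.0424), the latter call being lost in 6 of 8 fits that left out a library. Its levels were 49.4 and 56.6 CPM, 67.8 and 78.1 CPM, 85.2 and 78.8 CPM, and 59.4 and 57.5 CPM in the same order of subsets. Of the core proteins, Uqcrc2 rose with MHCII in Tspan8neg cells (0.44, adjusted p = 0.0224), and Uqcrc1 was called in no comparison and stayed between 126 and 155 CPM. Uqcr10, a small subunit, was higher in Tspan8pos at MHCIIlo (0.49) and MHCIIhi (0.55), and Uqcrh, the hinge protein, at MHCIIhi (0.41). DESeq2 made none of these 3 calls.

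In complex IV, 6 of 13 tested genes rose with MHCII in Tspan8neg cells and 0 fell: Cox4i1, Cox4i2, Cox5a, Cox6a1, Cox6b1 and Cox7a2. That is 46.2% called, against 43.3% of all genes called and 21.9% higher, and the Cox4i2 call was lost in 8 of 8 fits that left out a library. Their catalytic partner mt-Co1 fell in the same libraries. Cox6b1 stood at 79.2 and 85.1 CPM in Tspan8negMHCIIlo, 114 and 140 CPM in Tspan8negMHCIIhi, 148 and 148 CPM in Tspan8posMHCIIhi, and 144 and 117 CPM in Tspan8posMHCIIlo. Tspan8negMHCIIlo was the lowest subset, Tspan8negMHCIIhi and Tspan8posMHCIIlo overlapped, and Tspan8posMHCIIhi was the highest. Cox6a1 was likewise lowest in Tspan8negMHCIIlo, at 88.5 and 99.5 CPM against 124 to 168 CPM elsewhere, and was higher in Tspan8pos at MHCIIlo by 0.80 (SE 0.14, adjusted p = 0.000837). Cox8a rose in that comparison by 0.66 (SE 0.15, adjusted p = 0.00425). Cox7b was higher with MHCII in Tspan8pos cells (0.59, adjusted p = 0.037), a call lost with DESeq2.

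In complex V, 1 of 17 tested genes was higher and 2 lower with Tspan8 at each MHCII level, and 3 rose and 0 fell with MHCII in Tspan8neg cells. Each is 17.6% of the genes tested, against 41.1%, 38.2% and 43.3% of all genes. Atp5a1, the alpha subunit, was lower in Tspan8pos at MHCIIlo (log2 -0.39, SE 0.11, adjusted p = 0.0198), with 513 and 532 CPM in Tspan8negMHCIIlo and 395 and 405 CPM in Tspan8posMHCIIlo, a call lost without either Tspan8posMHCIIlo library. Atp5b was lower at MHCIIhi (log2 -0.33, SE 0.11, adjusted p = 0.04), with 1054 and 1063 CPM in Tspan8negMHCIIhi and 845 and 839 CPM in Tspan8posMHCIIhi, a call lost in 6 of 8 fits that left out a library and without a filter on low counts. Atp5g2, 1 of the genes for the ring subunit c, was lower in Tspan8pos at both MHCII levels (-0.40 and -0.41), at 100 to 114 CPM in the Tspan8neg and 79.3 to 87.4 CPM in the Tspan8pos libraries. It shares 40.2% of its 31-base words with other genes, so its counts are uncertain, and leaving out a library ended its call in 7 of 8 fits at MHCIIlo and 6 of 8 at MHCIIhi. Atp5d, a subunit of the F1 part, was higher in Tspan8pos at both levels (0.54 and 0.40). Atp5f1, the stator subunit b, rose with MHCII in Tspan8neg cells from 93.2 and 91.5 CPM to 149 and 160 CPM (log2 0.74, SE 0.13, adjusted p = 0.000939). Atp5f1 overlaps Wdr77 on the opposite strand.

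**Figure D5:**
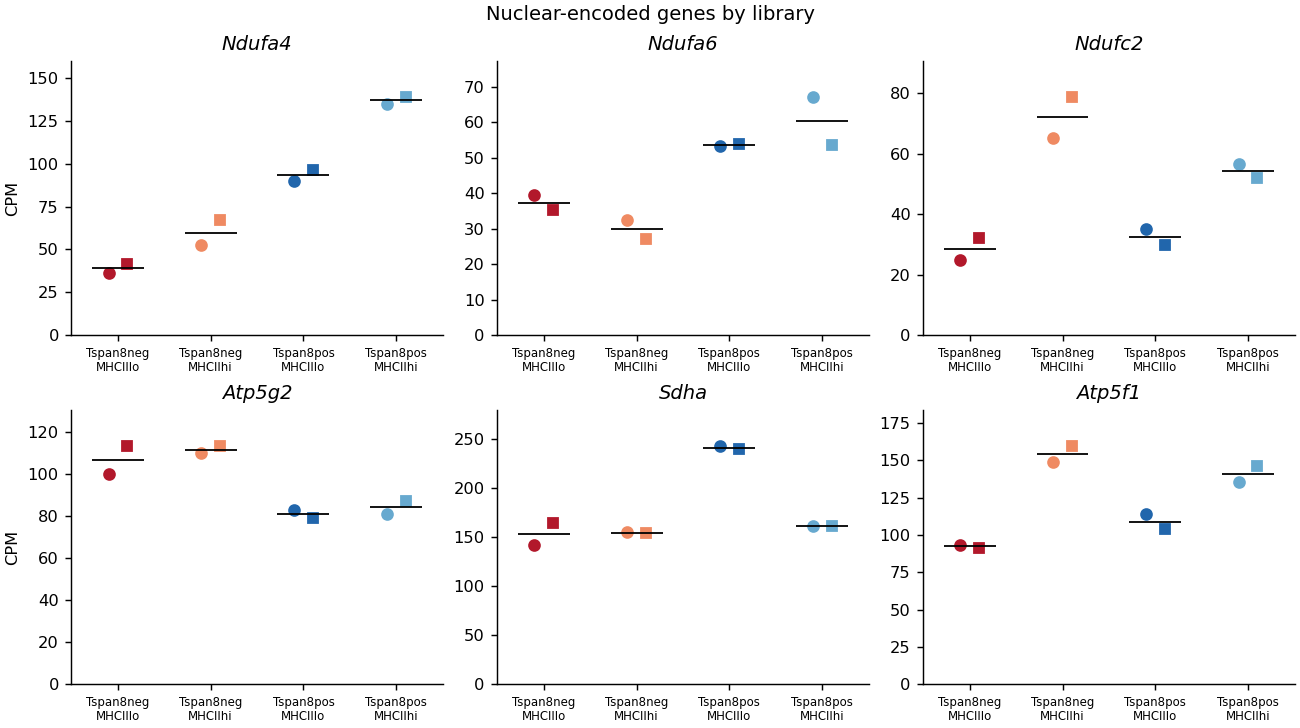
CPM by library of 6 nuclear-encoded genes, with circles for replicate 1, squares for replicate 2 and lines for the mean of a subset. Ndufa4 rose from 36.5 and 41.7 CPM in Tspan8negMHCIIlo to 135 and 139 CPM in Tspan8posMHCIIhi, and Sdha stood at 243 and 240 CPM in Tspan8posMHCIIlo alone.

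Tissue-restricted isoforms of complex IV subunits were scarce. Cox4i2, the isoform known from lung and responsive to oxygen, had 1 and 4 counts in Tspan8negMHCIIlo, 15 and 23 in Tspan8negMHCIIhi, 1 and 1 in Tspan8posMHCIIhi, and 0 and 0 in Tspan8posMHCIIlo. Only Tspan8negMHCIIhi had more than 4 counts in a library. Summed over replicates, its level there was 4.70 times that of Tspan8negMHCIIlo (95% exact counting interval 1.85 to 15.3), 15 times that of Tspan8posMHCIIhi (3.87 to 128) and at least 9.19-fold higher than in Tspan8posMHCIIlo, against a floor of 3 counts over the subset. The edgeR calls were an adjusted p of 0.0094 against Tspan8posMHCIIhi and of 0.048 against Tspan8negMHCIIlo, and DESeq2 made neither. Cox6b2, known as the testis isoform, stood at 2.25 and 11.3 CPM, 3.33 and 6.02 CPM, 2.39 and 2.23 CPM, and 0.55 and 1.09 CPM in the order used above, and was lower in Tspan8pos at MHCIIlo (log2 -2.83, SE 0.81, adjusted p = 0.016). Its 2 Tspan8negMHCIIlo libraries differed widely, and the call was lost without the higher of them, without either Tspan8posMHCIIlo library and after thinning. Cox6a2, Cox7a1, Cox8b and Ndufa4l2 did not pass the filter, with at most 14 counts in a library. Cox6a2, Cox7a1 and Cox8b had 0 counts in both Tspan8posMHCIIlo libraries. Intervals and floors cover counting error only.

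Promoters of the nuclear members were read from RefSeq (GRCm38.p6) in windows of 300 bases, mostly upstream of a start, where 73 of 91 members matched. The NRF1 motif GCATGCGC, searched on both strands, was in 12 of 73 members (16.4%) and in 3.94% of 17492 protein-coding genes with such windows. The YY1 motif AAGATGGCG was in 8 members (11% against 2.14%) and the Ets motif CCGGAAGT in 5 (6.85% against 5.69%). Any of the 3 was in 24 members (32.9% against 11%). These shares are descriptions of short words in fixed windows. The NRF1 word overlaps its own reverse complement, so that GCGCATGCGC holds both. The windows of Cox6a1 (chr5:115348909-115349208), Ndufa6 (chr15:82354242-82354541) and Atp5g2 (chr15:102670998-102671297), all on the minus strand, are shown with the motif in capitals because these 3 genes hold it and moved differently with Tspan8.
Cox6a1: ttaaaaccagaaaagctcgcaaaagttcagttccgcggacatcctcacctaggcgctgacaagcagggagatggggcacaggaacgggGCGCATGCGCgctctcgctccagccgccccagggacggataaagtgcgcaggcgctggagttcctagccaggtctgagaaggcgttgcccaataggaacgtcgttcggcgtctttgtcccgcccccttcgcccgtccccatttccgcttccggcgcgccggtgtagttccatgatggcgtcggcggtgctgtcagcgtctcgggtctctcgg
Ndufa6: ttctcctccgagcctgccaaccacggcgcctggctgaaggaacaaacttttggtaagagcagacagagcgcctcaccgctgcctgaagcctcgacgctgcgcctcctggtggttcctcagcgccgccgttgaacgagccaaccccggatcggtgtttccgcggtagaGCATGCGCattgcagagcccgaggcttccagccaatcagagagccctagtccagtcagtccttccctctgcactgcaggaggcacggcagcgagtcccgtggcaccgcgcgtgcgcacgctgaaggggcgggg
Atp5g2: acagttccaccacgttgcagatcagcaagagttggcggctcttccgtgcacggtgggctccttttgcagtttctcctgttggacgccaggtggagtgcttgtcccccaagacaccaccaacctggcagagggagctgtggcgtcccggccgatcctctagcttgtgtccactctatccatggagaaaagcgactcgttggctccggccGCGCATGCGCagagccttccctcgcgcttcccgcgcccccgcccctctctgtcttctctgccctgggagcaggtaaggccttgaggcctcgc
Ndufa6 was higher and Atp5g2 lower in Tspan8pos at both MHCII levels, and Cox6a1 was called with Tspan8 at MHCIIlo only. The windows of Ndufa4 and Ndufc2 hold none of the 3 words.

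Genes that control or process mitochondrial transcripts were taken from a list of 20 regulators and 1 of 15 factors of mitochondrial mRNA handling. Of the 20 regulators, 1 was higher and 3 lower in Tspan8pos at MHCIIlo, and 2 were higher and 3 lower with MHCII in Tspan8neg cells, which is 20% and 25% called against 41.1% and 43.3% of all genes. Polrmt, the mitochondrial RNA polymerase, stood at 36.2 and 41.3 CPM in Tspan8negMHCIIlo and 18.1 to 28.4 CPM elsewhere. It fell with MHCII in Tspan8neg cells by 0.93 on the log2 scale (SE 0.20, adjusted p = 0.00314) and was lower with Tspan8 at MHCIIlo (-0.55, adjusted p = 0.0496). The mitochondrial genes were lower in the same libraries, and a link to Polrmt was not tested. Tfam, which packages mitochondrial DNA and starts its transcription, was lower with Tspan8 at MHCIIlo (-0.66, adjusted p = 0.0453). Pprc1, a coactivator related to Ppargc1a, went from 157 and 103 CPM to 46.8 and 44.7 CPM with MHCII in Tspan8neg cells (-1.51, SE 0.23, adjusted p = 0.000342).

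Esrra, a nuclear receptor that activates respiratory chain genes, was higher in Tspan8pos at MHCIIlo (1.32, SE 0.23, adjusted p = 0.000848), at 67.6 and 70.2 CPM against 25.8 and 29.5 CPM. Ppargc1a, Nrf1 and Gabpa were called in no comparison, with adjusted p-values between 0.0653 and 0.92. Gabpb1, the partner of Gabpa, was lower in Tspan8pos at MHCIIhi (-1.08, SE 0.15, adjusted p = 0.000197). Of 14 handling factors tested, 5 were lower and 0 higher with Tspan8 at MHCIIlo, with a median of -0.52 against -0.03 for all genes. That is 35.7% called, against 41.1% of all genes called and 19.6% lower. Among them Lrpprc, which stabilises mitochondrial mRNAs, was lower by -0.88 (adjusted p = 0.00545) and Pnpt1, a mitochondrial ribonuclease, by -1.38 (adjusted p = 0.00293). Slirp, the partner of Lrpprc, was called in no comparison. Hsd17b10, a subunit of the mitochondrial RNase P, fell with MHCII in Tspan8neg cells (-1.08, adjusted p = 0.00552).

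Of 78 mitochondrial ribosomal proteins, 1 was higher and 12 lower in Tspan8pos at MHCIIlo, and 1 and 7 at MHCIIhi, which is 16.7% and 10.3% called against 41.1% and 38.2% of all genes. With MHCII 5 were higher and 1 lower in Tspan8neg, and 2 and 1 in Tspan8pos cells (7.69% and 3.85% against 43.3% and 16.8%). Mrpl38 rose with MHCII in Tspan8neg cells (1.08, SE 0.14, adjusted p = 0.000125), as did Mrpl45 (0.95), and Mrpl11 was lower in Tspan8pos at MHCIIhi (-1.06). In the TCA cycle list of 13 genes, 3 rose and 2 fell with Tspan8 at MHCIIlo (38.5% against 41.1% of all genes), and citrate synthase (Cs) rose with MHCII in Tspan8neg cells (0.66, adjusted p = 0.002). Suclg2, a succinyl-CoA ligase subunit, was lower in Tspan8pos at MHCIIhi (-0.87), and Idh3g, an isocitrate dehydrogenase subunit, at MHCIIlo (-0.78).

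Of 18 assembly factors of complex IV, 2 were higher with MHCII in Tspan8neg cells, the copper carrier Cox17 (0.76, adjusted p = 0.00281) and Sco1 (0.77), and 0 were lower (11.1% against 43.3% of all genes). Sco2, which also delivers copper, was lower in Tspan8pos at MHCIIlo (-1.22). Of 7 tested companions of complex III, Ttc19 alone was called, higher in Tspan8pos at MHCIIhi (1.45). That is 14.3% called there, against 38.2% of all genes called and 20.8% higher. Cyc1 and Cycs, the cytochromes that carry electrons through and from complex III, were called in no comparison. Glycolysis genes moved in equal numbers both ways: of 19, 5 rose and 5 fell with Tspan8 at MHCIIlo, 6 and 6 at MHCIIhi, and 4 and 4 with MHCII in Tspan8neg cells. These are 52.6%, 63.2% and 42.1% called, against 41.1%, 38.2% and 43.3% of all genes. Ldhb, the heart-type lactate dehydrogenase chain, was at 549 and 531 CPM in Tspan8posMHCIIhi and 413 and 427 CPM in Tspan8posMHCIIlo against 96.6 to 203 CPM in Tspan8neg libraries, whereas Ldha was called for MHCII in Tspan8pos cells (0.57, adjusted p = 0.0108) and in no other comparison. Hk1 was higher in Tspan8pos at MHCIIhi (1.65), and Eno2 rose with MHCII in Tspan8neg cells (2.48).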

How the data were processed

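RNA-seq of 8 libraries of sorted mTECs was analysed, 2 for each of 4 subsets, grouped by the subset and replicate in the sample labels. Reads were single-end with 54 bases. The authors deposited estimated counts per gene, whole numbers without normalization, made with Salmon 1.8.0 on a Gencode transcriptome of mm10, and the labels also name DESeq2 1.30.0. The study's methods describe cDNA pre-amplification and tagmentation, the labels a stranded mRNA kit, so overlapping genes on opposite strands (32 of 91 nuclear members have one) are uncertain, as are genes of similar sequence.

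Symbols and coordinates came from GENCODE on GRCm38, a later release than the authors used. Symbols matched 99.49% of the genes. The table was fitted in R 4.3.3 with edgeR 4.0.16 (quasi-likelihood F test, TMM, filterByExpr, a mean per subset, all 8 libraries), with Benjamini-Hochberg adjustment across 17006 genes and a call at an adjusted p under 0.05 and no fold limit. The biological coefficient of variation was 15.5%, estimated over all subsets together. Replicates differed most in Tspan8negMHCIIlo, with a chi-square per gene of 9.99. It was 3.46 in Tspan8negMHCIIhi, 5.4 in Tspan8posMHCIIhi and 3.43 in Tspan8posMHCIIlo. DESeq2 1.42.0 was an alternative. An exact permutation test of 2 against 2 libraries cannot reach 0.05 and was not used. Sums over genes are descriptions without a test. Standard errors come from the F statistic, and p-values are two-sided. Libraries were also compared after thinning, with a length and GC correction, other filters and normalizations, and without each library in turn. The members and lists were chosen with earlier results of these data known. Summing mitochondrial genes with nuclear copies (at least 90% of 31-base words shared) was added after seeing the data. Named were all mitochondrial members, listed isoforms, the 3 nuclear genes called with the largest change in each direction and comparison at 10 CPM or more without overlap, the highest per kilobase in each complex, core subunits of complexes II and III, and up to 3 genes per list beside fixed regulators. Further called genes were named after their values were seen. Scripts were tested on simulated data.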

Additional observations from a re-analysis of the deposited data

Results flagged for a closer look

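In 8 mitochondrially encoded genes the MHCII difference itself differed between Tspan8neg and Tspan8pos cells in the interaction test (edgeR, adjusted p under 0.05), with the larger fall in Tspan8neg. The interaction on the log2 scale was -1.27 for mt-Nd1, -1.28 for mt-Nd2, -1.22 for mt-Nd4, -3.29 for mt-Nd4l, -2.45 for mt-Nd6, -1.16 for mt-Cytb, -1.36 for mt-Co1 and -2.96 for mt-Atp8. The calls of mt-Nd1, mt-Nd4 and mt-Co1 were kept in all 8 fits that left out a library. The call was lost in 5 of 8 such fits for mt-Nd6, 4 for mt-Nd2, 3 for mt-Nd4l, 1 for mt-Cytb and 1 for mt-Atp8, and DESeq2 did not make those of mt-Nd6 and mt-Nd4l. That of mt-Nd6 was also lost after thinning. Of these genes, mt-Nd4, mt-Nd4l and mt-Co1 have a near-identical nuclear copy, and with the copies summed mt-Nd4l had an interaction of -1.37 and mt-Co1 of -1.25. All 8 values rest on the 2 Tspan8negMHCIIlo libraries, which also had the highest thymocyte, B cell, muscle and endothelial marker sums. The part of the cells behind these markers, mTECs or others, was not tested.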

How the results depend on the processing

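Of 63 calls of named members, each refitted under up to 11 other settings and 8 fits without a library, none changed direction over 1184 alternatives, 928 kept the call and 256 lost it. 23 calls were kept in every fit without a library, 14 of them mitochondrial. Under the stricter rule (adjusted p under 0.01, log2 change of 1 or more either way) the nuclear counts were 1 and 3 for Tspan8 at MHCIIlo and MHCIIhi and 1 and 0 for MHCII in Tspan8neg and Tspan8pos. The mitochondrial counts were 2 and 0 for Tspan8 and 4 in the interaction. With only the libraries of a comparison, nuclear counts were 8 and 19 for Tspan8 and 10 for MHCII in Tspan8pos, and 1 mitochondrial gene was called in the latter. For Tspan8 at MHCIIhi, nuclear counts were 5 with DESeq2, 6 without a filter and 5 after thinning, and mitochondrial counts were 1 with DESeq2, 1 with DESeq2 size factors, 1 with at least 10 counts in 4 libraries, 0 after thinning and 4 with the length and GC correction. For MHCII in Tspan8pos, the nuclear count was 3 with the length and GC correction and the mitochondrial count 1 without a filter. For the interaction, nuclear counts were 1 with DESeq2, 2 with its size factors, 1 without a filter, 1 with at least 10 counts in 4 libraries, 1 after thinning and 2 with the length and GC correction. Same-numbered libraries deviated with correlations between 0.00402 and 0.0924, so the labels' numbers were not taken as pairs. With the replicate block the mitochondrial count for MHCII in Tspan8pos was 1 and the nuclear count in the interaction 2, and the nuclear and mitochondrial counts were 14 and 9 for Tspan8 at MHCIIlo, 13 and 3 at MHCIIhi, and 17 and 11 for MHCII in Tspan8neg. The cause of these differences was not tested.

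Without 1 library in turn, nuclear counts ranged from 6 to 17 for Tspan8 at MHCIIlo (6 without Tspan8posMHCIIlo replicate 1, 9 without replicate 2), from 2 to 17 at MHCIIhi (3 and 2 without Tspan8negMHCIIhi replicates 1 and 2, 17 without Tspan8negMHCIIlo replicate 1, 4 without either Tspan8posMHCIIhi library, 6 without Tspan8posMHCIIlo replicate 2), from 3 to 16 for MHCII in Tspan8neg (11 and 3 without Tspan8negMHCIIhi replicates 1 and 2, 10 without Tspan8negMHCIIlo replicate 1, 11 without Tspan8posMHCIIhi replicate 2), from 0 to 11 in Tspan8pos (3 without either Tspan8negMHCIIhi library, 11 without either Tspan8negMHCIIlo library, 1 without Tspan8posMHCIIlo replicate 1, 0 without either Tspan8posMHCIIhi library or Tspan8posMHCIIlo replicate 2) and from 0 to 2 in the interaction (1 and 2 without Tspan8negMHCIIlo replicates 1 and 2). Mitochondrial counts ranged from 6 to 10, 0 to 4, 7 to 10, 0 to 2 and 4 to 9 in the same order, with in the second 0 and 1 without Tspan8negMHCIIhi replicates 1 and 2 and 4 without Tspan8negMHCIIlo replicate 1 or Tspan8posMHCIIhi replicate 2, in the fourth 1 without either Tspan8negMHCIIlo library or Tspan8posMHCIIlo replicate 2 and 2 without Tspan8posMHCIIhi replicate 2, and in the last 4 without Tspan8negMHCIIhi replicate 1, 5 without Tspan8posMHCIIhi replicate 1 and 5 without Tspan8posMHCIIlo replicate 2. Fits without a library leave a subset with 1 sample, assumed to vary like the others.

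Mean mitochondrial shares were 1.58, 0.636, 0.644 and 0.670% in Tspan8negMHCIIlo, Tspan8negMHCIIhi, Tspan8posMHCIIhi and Tspan8posMHCIIlo. Without mt-Co1 they were 0.825, 0.356, 0.366 and 0.378%, and with copies 2.13, 0.845, 0.873 and 0.941%. Mean nuclear shares without Atp5b were 0.521, 0.603, 0.557 and 0.515%. The log2 ratio of mitochondrial to nuclear counts, 1.38, -0.181, 0.0173 and 0.185, became 0.666, -0.774, -0.61 and -0.461 without the most abundant gene of each class, and 1.81, 0.228, 0.456 and 0.679 with copies. Tspan8negMHCIIlo had the highest mitochondrial share and ratio in each case.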

Other observations

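Of the 6 pairs in the table, only mt-Co1 has a copy that differs by more than 1 base within the aligned part. Its nuclear row took at most 14.9% of the summed counts. That copy spans 492 bases, where mt-Co1 has 1545, and 426 of its 439 words of 54 bases also occur in mt-Co1. What sets the share was not tested. With every pair summed, the fold of Tspan8negMHCIIlo over the mean of the other 3 subsets was 2.39 for mt-Co1, 2.23 for mt-Co2, 2.42 for mt-Co3 and 2.42 for mt-Atp6. It was 2.00 for mt-Nd1, 1.97 for mt-Nd2, 2.11 for mt-Cytb and 3.34 for mt-Atp8, but 1.33 for mt-Nd5. The last 2 genes lay farthest from the rest in either direction. The mitochondrial ribosomal RNAs mt-Rnr1 and mt-Rnr2 were called higher in Tspan8pos at MHCIIhi (log2 0.80, adjusted p = 0.00766, and 0.75, adjusted p = 0.0142, edgeR). With copies summed, all 13 protein genes had a positive log2 fold change there, from 0.10 to 1.24. Of these, 3 were called, where 38.2% of all genes were called. A difference between the ribosomal RNAs and the protein genes was not tested.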
